A study of Mus musculus with 12 samples.

Results

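Genes that progesterone and glucocorticoids are both known to act on were followed in single cells of the mouse mammary gland. The 7 genes were Fkbp5, Tsc22d3, Zbtb16, Sgk1, Mt1, Mt2 and Errfi1, chosen by symbol out of the 27998 genes listed in every library, and all 7 were present. Droplet-based 3′ single-cell RNA sequencing was used on the mammary glands of female C57BL/6J mice aged 43 weeks, with 12 groups and 1 library per group. Intact mice were set beside mice made follicle-depleted with VCD (4-vinylcyclohexene diepoxide at 160 mg/kg each day over 15 days), a model of menopause in which ovarian stroma is left in place. VCD mice then received sesame oil vehicle (VCD_Vehicle), estradiol at 1 µg per animal per day for 1 week (VCD_E2), the same dose of E2 with progesterone at 1 mg per animal per day (VCD_E2_P4), or E2 with a single 5 mg injection of the estrogen receptor antagonist ICI (VCD_E2_ICI). The same 3 hormone arms were repeated on food with a low dose of polybrominated diphenyl ethers (PBDE-47 at 0.05, PBDE-100 at 0.0028 and PBDE-153 at 0.0063 mg/kg per day for 20 weeks: VCD_Low_PBDE, VCD_Low_E2, VCD_Low_E2_P4). They were repeated again on a high dose (1, 0.056 and 0.126 mg/kg per day for 1 week: VCD_High_PBDE, VCD_High_PBDE_E2, VCD_High_PBDE_E2_P4), so that the dose of PBDE and the length of exposure cannot be told apart. A further vehicle group, VCD_Vehicle_NormEnv, was VCD-treated and kept in ordinary plastic housing that may have carried some PBDE, and all groups without PBDE ate matched food with DMSO.

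The progesterone receptor (Pgr) and the glucocorticoid receptor (Nr3c1) belong to one family of nuclear receptors and bind the same palindromic DNA element, so that a gene with such an element can answer to either hormone. Fkbp5 encodes a co-chaperone that lowers hormone binding by both receptors, Tsc22d3 encodes the anti-inflammatory protein GILZ, and Zbtb16 encodes the zinc finger factor PLZF. Sgk1 encodes a kinase that controls ion channels, Mt1 and Mt2 encode metallothioneins that bind zinc and copper, and Errfi1 encodes an inhibitor of the EGF receptor. In the mammary gland Pgr is best known from luminal epithelial cells, which answer progesterone with paracrine signals, and Nr3c1 is present in nearly every cell type.

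On GRCm38 the genes lie on 6 chromosomes. Fkbp5 (ENSMUSG00000024222) is at chr17:28399094-28517527 and Tsc22d3 (ENSMUSG00000031431) at chrX:140539528-140600659. Zbtb16 (ENSMUSG00000066687) is at chr9:48654297-48836222, and these 3 are on the minus strand. On the plus strand are Sgk1 (ENSMUSG00000019970) at chr10:21882184-21999903, Mt2 (ENSMUSG00000031762) at chr8:94172664-94173568, Mt1 (ENSMUSG00000031765) at chr8:94179082-94180327 and Errfi1 (ENSMUSG00000028967) at chr4:150853919-150868892. Mt1 and Mt2 are neighbouring paralogs with similar coding sequence, and how far reads of one were counted for the other was not tested. RefSeq promoter windows of GRCm38.p6, from 250 bases before to 50 bases after a start, were given for 6 of the 7 genes, 14 windows in all. The full palindrome shared by both receptors (GNACANNNTGTNC, which reads the same on both strands) was found in 2 of these 14 windows and in 156 of all 32851 windows (0.475%). The windows that hold it belonged to Sgk1 and Mt1. The metal response element that zinc uses to raise metallothioneins (TGCGCNC or TGCACNC, either strand) was found in 25.7% of all windows, at least 3 times in 1.97% and at least 4 times in 0.517%. It occurred 3 times in the Mt1 window, 4 times in the Mt2 window and once in another Sgk1 window. The 3 windows are shown because Sgk1, Mt1 and Mt2 were the members with most of the differences described below, and capitals mark the receptor palindrome (Sgk1 and Mt1) and the metal elements (Mt1 and Mt2). They are the Sgk1 window chr10:21993640-21993939, the Mt1 window chr8:94178839-94179138 and the Mt2 window chr8:94172368-94172667, all on the plus strand.
Sgk1: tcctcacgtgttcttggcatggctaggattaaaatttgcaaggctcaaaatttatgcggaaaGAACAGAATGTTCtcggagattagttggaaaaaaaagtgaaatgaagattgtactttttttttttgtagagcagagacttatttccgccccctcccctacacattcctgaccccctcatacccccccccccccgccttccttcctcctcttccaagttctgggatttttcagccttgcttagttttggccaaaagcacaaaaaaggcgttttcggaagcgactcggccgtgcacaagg
Mt1: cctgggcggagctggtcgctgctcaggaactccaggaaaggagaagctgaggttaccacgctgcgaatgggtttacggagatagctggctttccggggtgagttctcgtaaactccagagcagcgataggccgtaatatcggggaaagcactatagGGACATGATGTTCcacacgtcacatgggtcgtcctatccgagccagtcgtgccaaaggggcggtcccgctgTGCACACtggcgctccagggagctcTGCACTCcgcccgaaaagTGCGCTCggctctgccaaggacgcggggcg
Mt2: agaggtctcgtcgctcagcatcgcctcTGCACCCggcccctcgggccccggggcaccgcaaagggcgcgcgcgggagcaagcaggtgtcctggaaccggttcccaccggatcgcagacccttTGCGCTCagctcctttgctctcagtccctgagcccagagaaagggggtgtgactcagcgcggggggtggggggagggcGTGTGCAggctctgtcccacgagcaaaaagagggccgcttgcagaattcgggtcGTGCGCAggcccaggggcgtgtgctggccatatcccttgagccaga
A match is a description of the letters only. The palindrome began 188 bases before the Sgk1 start of that window and 94 bases before the Mt1 start.

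The libraries held 41737881 to 109224969 UMIs (median 62355232) in 58620 barcodes, of which 46257 passed the filters (1996 to 7570 cells per library). Pairs of libraries shared 0 to 15 barcodes, at most 0.393% of the smaller. VCD_Low_E2_P4 stood apart by its 10006 barcodes and the lowest median depth. A code in the deposited file names split the libraries into sets of 5 and 7. Each E2 + P4 library shared the code of its E2 partner, whereas high PBDE and no PBDE had different codes throughout and cannot be told apart from it. Cells were named by marker genes that did not include the 7 members, giving 13389 Dpp4+ fibroblast-like cells, 8817 Fib_1-like (adipogenic markers), 4789 Fib_2-like (matrix markers), 5243 Fib_3-like (Gdf10 and F3), 1137 macrophage-like, 2474 T cell-like and 143 luminal epithelial-like cells. The 10 leading genes of each type held 2 to 4 of its own markers and 0 of another type's, general fibroblast markers not being counted against the fibroblast types. Since the cells were named by these markers, this is no separate check of the names.

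Pgr was found in luminal cells and Dpp4+ fibroblasts above all, whereas Nr3c1 was present in every type. A Pgr UMI was found in 44.8% of luminal cells, 17.4% of Dpp4+ cells, 5.05% of Fib_3, 1.69% of Fib_2 and 1.35% of Fib_1 cells. In 0.162% of T cells (median depth 6006 UMIs) and 0 of 1137 macrophages (median depth 10975, which allows a share of cells with a UMI of up to 0.324% by the exact binomial interval) the level was that of background or below detection, against a median depth of 18817 UMIs in Dpp4+ cells and 3389 in luminal cells. Nr3c1 lay between 101 and 144 CPM (UMIs of a type's cells summed and scaled to a common total) in the fibroblast types and macrophages, at 354 CPM in T cells and at 20.1 CPM in luminal cells. Macrophages and T cells served as the cells without Pgr above background, although cells with a low level may show no UMI.

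Each member had its own distribution over the 7 types named above, to which the orders here are limited. Fkbp5 was low and even, from 11.7 CPM in luminal cells to 26.7 CPM in T cells. Tsc22d3 was highest in immune cells, at 254 CPM in T cells and 208 CPM in macrophages against 38.4 CPM in Dpp4+ cells. Zbtb16 was highest in Dpp4+ cells (45.2 CPM) and lowest in T cells (3.79 CPM). The kinase gene Sgk1 was at 417 CPM in Fib_1, 360 CPM in Fib_2 and 110 CPM in Dpp4+ cells. Metallothionein Mt1 was abundant in all fibroblasts, from 3508 CPM in Fib_2 to 6246 CPM in Fib_1, and was at 461 CPM in T cells. Mt2 was highest in Dpp4+ cells (1812 CPM), and so was Errfi1 (1312 CPM, against 354 to 482 CPM in the other fibroblast types). The range over libraries overlapped between most neighbours in these orders. For Fkbp5 it ran from 13.3 to 33.1 CPM in Dpp4+ cells and from 14.7 to 34.1 CPM in T cells. For Tsc22d3 it ran from 24.6 to 80.2 CPM in Dpp4+ cells, below the 113 to 502 CPM of macrophages and the 199 to 404 CPM of T cells, and for Sgk1 from 66.3 to 187 CPM in Dpp4+ cells, below the 250.3 to 638 CPM of Fib_2 cells and the 333 to 938 CPM of Fib_1 cells. Zbtb16 in T cells (2.07 to 11.1 CPM) lay below Dpp4+ cells (22.2 to 108 CPM) in every library.

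Whether P4 added to E2 moved these genes in the fibroblasts that carry Pgr was asked first. No member passed the threshold in Dpp4+ cells. The test compared E2 + P4 with E2 in the 9 libraries of hormone by PBDE level (edgeR's quasi-likelihood test on summed UMIs with PBDE level as covariate, Benjamini-Hochberg adjustment over all 13552 genes, threshold 0.05). With 1 library per group its error is what the additive layout left over. That error holds the spread between libraries together with any hormone response that differs by PBDE level, which cannot be told apart. Of all genes, 0.118% were called, and 1 of the 7 members (Sgk1) had an unadjusted p under 0.05. Values below are given for no, low and high PBDE in that order.

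Sgk1 was the member nearest to a call. It was at 154, 187 and 172 CPM with E2 and at 90.0, 99.8 and 131 CPM with E2 + P4. All 3 E2 + P4 libraries were below all 3 E2 libraries, with a log2 fold change of -0.60 ± 0.145 (SE) and adjusted p = 0.256. Its rank by p was 181 of 13552, and DESeq2 gave the same fold with adjusted p = 0.0145. Mt1 was at 2687, 2970 and 3111 CPM with E2 and at 3827, 3367 and 3245 CPM with E2 + P4, higher at each PBDE level, with a log2 fold change of 0.35 ± 0.237 and adjusted p = 0.626. Sgk1 and Mt1 were the 2 of 7 members whose groups did not overlap, and of all genes 17.9% did not overlap in this comparison. Of the 13544 genes compared, 2042 were lower without overlap, as Sgk1 was, and 383 were higher, as Mt1 was. Mt2 was at 1311, 1515 and 1055 CPM with E2 and at 1948, 1494 and 1278 CPM with E2 + P4, and its groups overlapped (0.39 ± 0.224, adjusted p = 0.56).

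The co-chaperone gene, the transcription regulator genes and Errfi1 were not called, and their direction was mixed over PBDE levels or their groups overlapped. Fkbp5 was at 16.2, 17.1 and 33.1 CPM with E2 and at 16.2, 18.1 and 27.6 CPM with E2 + P4, a log2 fold change of 0.01 ± 0.316 (adjusted p = 0.996). Zbtb16 was at 22.2, 29.3 and 108 CPM with E2 and at 28.4, 27.7 and 59.4 CPM with E2 + P4 (-0.16 ± 0.411, adjusted p = 0.92). For both genes the high PBDE libraries with E2 and with E2 + P4 were above those at no and low PBDE. Without hormone low PBDE was highest, at 14.1, 30.9 and 16.7 CPM for Fkbp5 and 36.7, 88.4 and 64.0 CPM for Zbtb16. Tsc22d3 was at 29.6, 24.6 and 80.2 CPM with E2 and at 24.6, 28.1 and 36.5 CPM with E2 + P4 (-0.35 ± 0.277, adjusted p = 0.672). Errfi1 was at 953, 1324 and 1804 CPM with E2 and at 970, 1110 and 1776 CPM with E2 + P4, a difference of 0.01 ± 0.136 (adjusted p = 0.991).

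**Figure D1:**
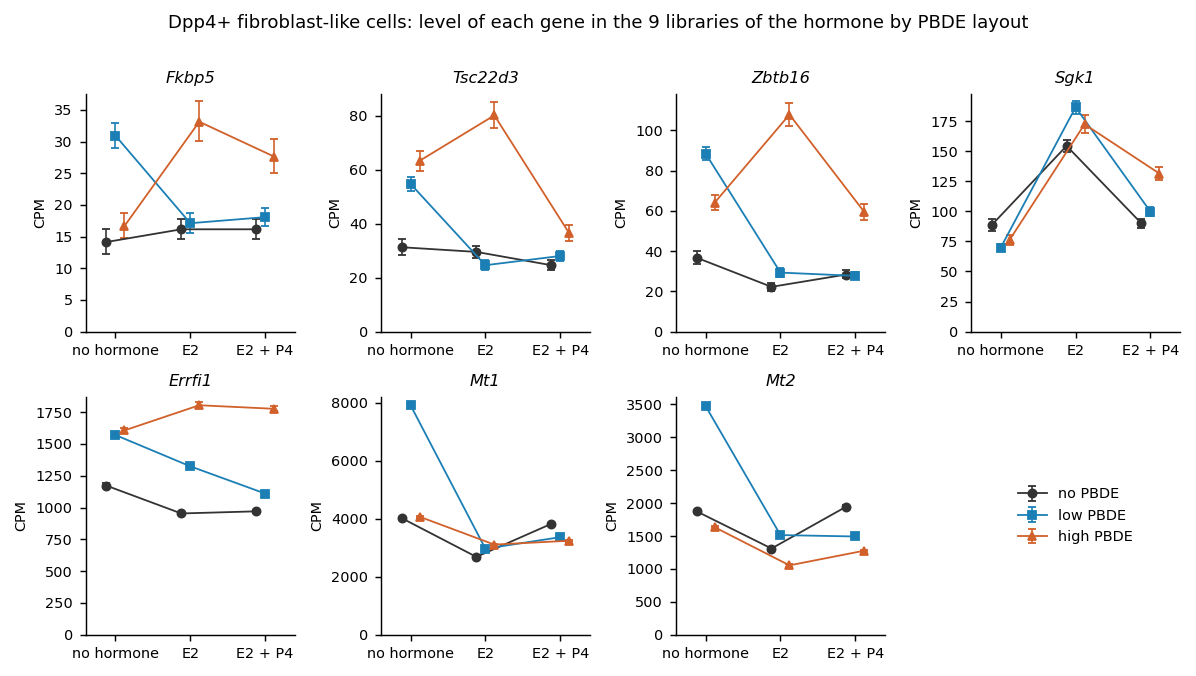
Level in CPM of the 7 genes in Dpp4+ fibroblast-like cells of 9 libraries against hormone (no hormone, E2, E2 + P4), with colour and marker for PBDE level, lines joining libraries of one PBDE level and bars for exact 95% Poisson intervals. Sgk1 stands at 154 to 187 CPM with E2 and at 90.0 to 131 CPM with E2 + P4; Fkbp5 is at 16.2, 17.1 and 33.1 CPM with E2 at no, low and high PBDE.

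Pgr itself was at 16.8, 44.8 and 31.6 CPM with E2 and at 9.22, 5.89 and 17.5 CPM with E2 + P4 in Dpp4+ cells (log2 fold change -1.59 ± 0.585, adjusted p = 0.428). The other receptors and chaperones described here were not called either. Nr3c1 and Esr1 were within 0.07 of 0 on the log2 scale. Nr3c2, the mineralocorticoid receptor gene, was at 0.42, and the chaperone genes Fkbp4, Hsp90aa1, Hsp90ab1 and Ptges3 lay between -0.08 and 0.18. Hsd11b1, whose product makes active glucocorticoid inside the cell, was at 1.72 with adjusted p = 0.113. In a list of further glucocorticoid targets 0 of 19 tested genes were called in either direction (median log2 fold change -0.11, against -0.004 over all genes), and in a list of further progesterone targets 0 of 12 (median -0.23). The glucocorticoid target Il1r2 was called higher when these cells were split by Pgr, as given below. The genes of metal and oxidant response (6 tested), EGF receptor feedback (9), SGK family and substrates (5) and dissociation stress (12) had 0 calls. The summed level of the stress list was nevertheless 10460, 10060 and 9226 CPM with E2 + P4 against 12090, 11620 and 11570 CPM with E2 in Dpp4+ cells, and it was also lower without overlap in Fib_1, Fib_2, Fib_3 and T cells. Its part in the members' values was not tested. Over all 13552 genes, 16 were called and 1429 had an unadjusted p under 0.05. The smallest p among higher genes belonged to Mcpt4 and Cma1 (log2 fold change 3.83 and 3.32), mast cell proteases that also led the cells left unnamed, followed by Serping1, C6 and C7 of the complement system. The only gene called lower was Cdh11 (-1.42, adjusted p = 0.0343), a fibroblast cadherin gene, and the next genes on that side, Nxnl2, Plk2, Map1a and Tet2, were not called.

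In the other 5 types with enough cells the same comparison gave 1 call. Mt1 was lower with E2 + P4 in Fib_2 cells, at 2041, 1836 and 1616 CPM against 2461, 3504 and 2726 CPM with E2 (log2 fold change -0.65 ± 0.124, adjusted p = 0.0467), and all 3 libraries were below all 3. Of all genes 1.14% were called in Fib_2 and 19.1% did not overlap. The call was lost when any 1 of the 9 libraries was left out (-0.80 to -0.50). Mt2 in the same cells was at 688, 607 and 462 CPM against 740, 854 and 576 CPM (-0.30 ± 0.106, adjusted p = 0.223), and Zbtb16 at 2.26, 4.61 and 7.22 CPM against 5.25, 5.10 and 33.3 CPM (-1.48 ± 0.568, adjusted p = 0.252). The 12 genes of the dissociation stress list moved with this comparison: their summed level in Fib_2 cells was 9087, 10040 and 10240 CPM with E2 + P4 and 15000, 15650 and 11900 CPM with E2. Of that list 1 gene was called lower (Jun, -0.83), and its part in the Mt1 value was not tested. Also called lower in Fib_2 were Hsd11b1 (-1.75, adjusted p = 0.0089) and the glucocorticoid target Pdk4 (-1.47), 1 of 19 tested in that list.

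Over the 6 types with enough cells, 42 estimates were made for the 7 members. Of these 16 were positive and 26 negative, they ranged from -1.48 to 0.39 with a median of -0.16, and 6 had an unadjusted p under 0.05. By edgeR's quasi-likelihood test these were 1, 1, 3, 0, 1 and 0 in Dpp4+, Fib_1, Fib_2, Fib_3, macrophage-like and T cell-like cells. Of all genes, 1429 of 13552, 1967 of 12977, 1890 of 12104, 1129 of 12491, 439 of 8172 and 1349 of 9575 were at that threshold in the same order. The direction was the same at all 3 PBDE levels for 3 upward and 10 downward pairs of gene and type, and was mixed for 29. The share of all genes with the same direction was not computed, so no pattern of the members is read from these counts. In Fib_1 cells 0 of 12977 genes were called by edgeR's quasi-likelihood test (0%), with 1967 at an unadjusted p under 0.05 and 122 called by DESeq2. Zbtb16 had the lowest value there, -1.06 ± 0.453 (adjusted p = 0.318). In Fib_3 cells the members lay between -0.61 and 0.30 (0.104% of all genes called). In macrophages, where no Pgr UMI was found, they lay between -0.64 and 0.39 (0.22% of all genes called), and in T cells between -0.40 and 0.33 (0.0104% called).

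Tsc22d3 was the lowest of the members in macrophages. It was at 113, 124 and 249 CPM with E2 + P4 and at 153, 187 and 502 CPM with E2, lower at each PBDE level (-0.64 ± 0.196, adjusted p = 0.614). Fkbp5 in macrophages was at 8.30, 7.06 and 33.3 CPM against 8.83, 9.83 and 40.6 CPM (-0.06 ± 0.555, adjusted p = 0.997).

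**Figure D2:**
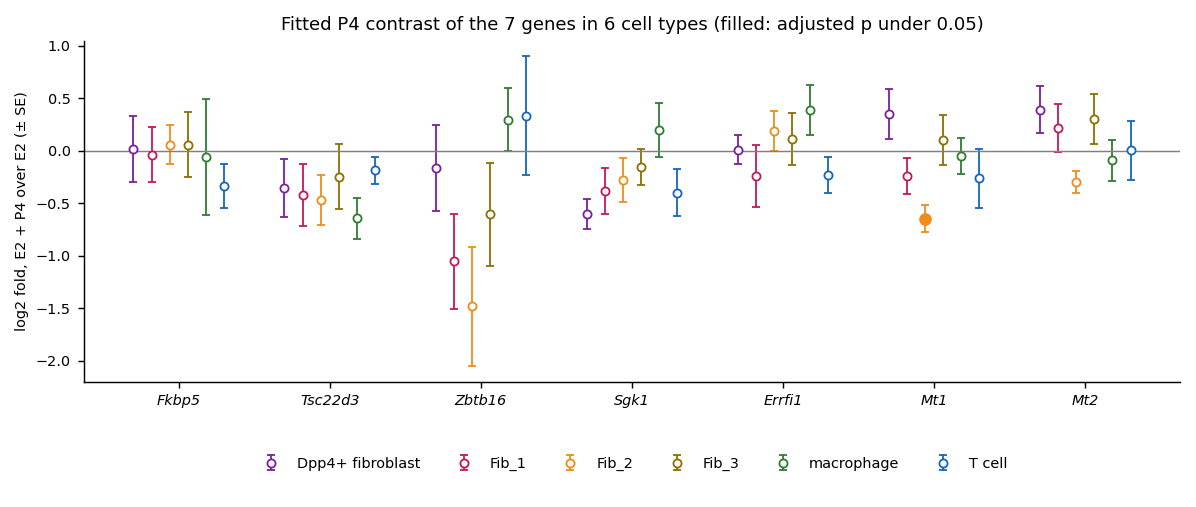
Log2 fold change of E2 + P4 over E2 with its standard error (edgeR, 9 libraries) for the 7 genes in 6 cell types, with filled points for an adjusted p under 0.05. The estimates lie between -1.48 and 0.39, and Mt1 in Fib_2 cells is the filled point.

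The difference of the P4 response between Dpp4+ cells and each other type was then tested directly, with the library as block. No member differed between Dpp4+ and macrophage-like cells (0.212% of all genes called) or T cell-like cells (0.365%). The nearest were Mt1 against T cells, with a difference of 0.62 ± 0.146 on the log2 scale (adjusted p = 0.103), and against macrophages Sgk1, with a difference of -0.80 ± 0.229 (adjusted p = 0.330). Against Fib_1 (0.215%), Fib_2 (1.76%) and Fib_3 (0.147%) none was called either. Against Fib_2 the difference was 0.98 ± 0.244 for Mt1 (adjusted p = 0.0887) and 1.11 ± 0.282 for Zbtb16 (adjusted p = 0.0923), and against Fib_1 it was 0.87 ± 0.195 for Zbtb16 (adjusted p = 0.0951).

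Within Dpp4+ cells, those with a detected Pgr UMI were then compared with the rest in the same library, each cell being thinned to 5000 UMIs. The metallothioneins were lower and Errfi1 was higher in the cells with Pgr. Of 12582 cells deep enough, 880 had a Pgr UMI (8 to 163 per library), and 807 shallower cells were left out. Mt1 was lower in 10 of 12 libraries with a median ratio of 0.739 (log2 fold change -0.41, adjusted p = 1.5e-07), and Mt2 in 11 of 12 with a median ratio of 0.751 (-0.43, adjusted p = 4.2e-09). Errfi1 was higher in 11 of 12 with a median ratio of 1.16 (0.19, adjusted p = 0.0077). These were 3 of 7 members called against 4.02% of 9177 genes, and the same number was called without any one library. In the same comparison 6 of 12 dissociation stress genes were called, Fosb and Hspa1a higher and Zfp36, Ier2, Junb and Ier3 lower, and their part in the members' values was not tested. Fkbp5, Tsc22d3, Zbtb16 and Sgk1 were not called, with median ratios of 0.655, 0.978, 1.14 and 1.05. Fkbp5 had 0 to 19 UMIs per library in the cells with Pgr, and its log2 fold change was -0.29 ± 0.201.

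The lower metallothionein level of cells with Pgr was smaller or absent with E2 + P4. The Mt1 ratio of cells with Pgr to other cells was 0.804, 0.749 and 0.704 without hormone and 0.728, 0.775 and 0.689 with E2. With E2 + P4 it was 0.916, 1.07 and 1.05, above all 6 of those values. In the groups outside the layout it was 0.583 in Intact, 0.718 in VCD_Vehicle_NormEnv and 0.513 in VCD_E2_ICI. The P4 response of Mt1 was larger in cells with Pgr than in the other Dpp4+ cells by 0.50 ± 0.077 on the log2 scale (adjusted p = 1.73e-05), and that of Mt2 by 0.50 ± 0.094 (adjusted p = 0.000739). These 2 of 7 members compare with 0.281% of 9238 genes. With all UMIs in place of thinned cells the differences were 0.55 for Mt1 (adjusted p = 0.00102) and 0.45 for Mt2 (adjusted p = 0.0187). Without VCD_Low_E2_P4 the call for Mt2 was lost (0.45, adjusted p = 0.0586), and that for Mt1 held in 9 of 9 such fits (0.42 to 0.58).

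Mt2 had the same order. Its ratio was 0.741, 0.686 and 0.754 without hormone, 0.627, 0.748 and 0.669 with E2 and 0.876, 1.06 and 0.922 with E2 + P4. Tested within the cells with Pgr alone, Mt2 rose with P4 by 0.81 ± 0.166 (adjusted p = 0.0319, with 0.573% of all genes called) and Mt1 was at 0.77 (adjusted p = 0.0647). In the other Dpp4+ cells Mt2 was at 0.32 and Mt1 at 0.28, and neither was called (0.179% of all genes called). Of the listed genes, edgeR's quasi-likelihood test called Il1r2 higher with P4 in both sets. It was at 1.21 in cells with Pgr (adjusted p = 0.0191) and at 1.17 in the others (adjusted p = 0.00933). Hsd11b1 was called higher in the cells with Pgr (1.71, adjusted p = 0.00382). The share of Dpp4+ cells with a Pgr UMI moved with the same comparison, at 8.35, 15.0 and 11.6% with E2 and 4.59, 2.26 and 7.22% with E2 + P4, so that the cells with Pgr are not the same cells in both groups. Its part in the ratios was not tested.

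**Figure D3:**
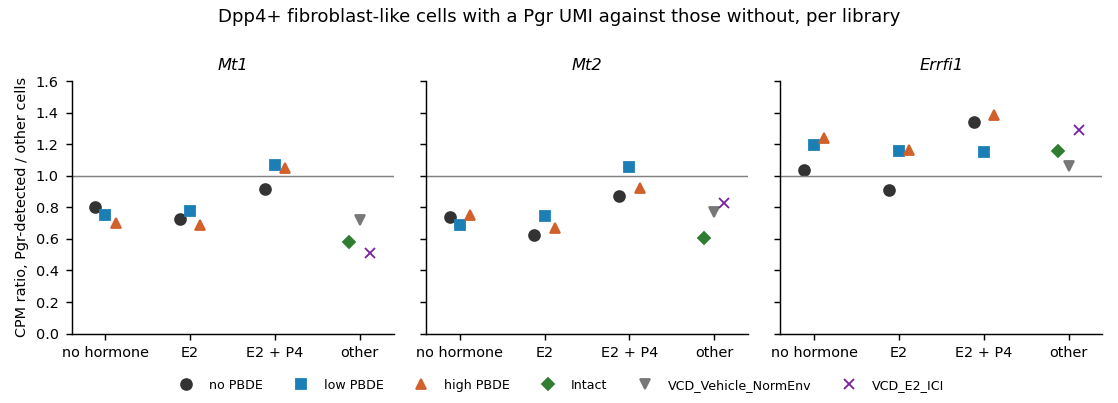
Ratio of the CPM of Mt1, Mt2 and Errfi1 in Dpp4+ cells with a Pgr UMI to that in the other Dpp4+ cells of the same library, all cells thinned to 5000 UMIs, with a line at a ratio of 1. With E2 + P4 the Mt1 ratio is 0.916 to 1.07, against 0.689 to 0.775 with E2.

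Luminal epithelial-like cells, where Pgr was most abundant, were few: 40, 21 and 4 cells with E2 and 17, 9 and 2 cells with E2 + P4. They fell below the set minimum of 20 cells per library, the fit was added after their values were seen, and 3′ UMI sums here can be carried by single cells. In these cells Mt2, Errfi1 and Mt1 rose with P4, 3 of 7 members against 7.08% of 5519 genes (143 genes up and 248 down). Without the high PBDE libraries, where only 2 cells had E2 + P4, the same 3 genes were called against 4.17% of all genes, with log2 fold changes of 3.60 for Mt2, 2.40 for Mt1 and 2.10 for Errfi1. With a stricter gate Mt2 alone of these 3 was called, and with each cell thinned to 1000 UMIs none was.

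Mt2 was the member whose call held under most settings. Its 53, 19 and 13 UMIs with E2 became 270, 104 and 4 with E2 + P4, or 74.1, 41.0 and 153 CPM against 738, 646 and 662 CPM. The log2 fold change was 3.09 ± 0.460 (adjusted p = 2.18e-09 by edgeR's quasi-likelihood test). A single cell held 175 of the 270 UMIs, and the other cells of that library held 95. In VCD_Low_E2_P4 a single cell held 68 of the 104 UMIs, and in VCD_High_PBDE_E2_P4 3 of the 4. With E2 the cell with most Mt2 UMIs held 33 of 53, 5 of 19 and 10 of 13. The call held without any 1 library (2.53 to 3.61). With each cell thinned to 1000 UMIs only 372 genes were tested and Mt2 was at 3.81 with adjusted p = 0.0852. A Mt2 UMI was then found in 0 of 40, 2 of 21 and 0 of 4 cells with E2 and in 9 of 17, 4 of 9 and 1 of 2 cells with E2 + P4.

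Under the main gate Fkbp5 was close to absent with E2, at 1, 2 and 0 UMIs, and was at 18, 8 and 0 UMIs with E2 + P4. A single cell held 8 of the 18 UMIs and another 4 of the 8. A Fkbp5 UMI was seen in 2 of 65 cells with E2 and in 9 of 28 with E2 + P4. With a looser gate (a lead of 1 marker) these were 5 of 81 cells (11 UMIs) and 11 of 35 cells (31 UMIs). With each cell thinned to 1000 UMIs no Fkbp5 UMI was left in any library. The ratio of its levels was 35.2 without PBDE and 11.5 with low PBDE. No interval is given for these ratios, since single cells held many of the UMIs. Under the main gate the high PBDE pair had 0 UMIs in both libraries. Fkbp5 passed the filter on low counts only through the libraries with E2 + P4, so that its values are a description with no test.

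Mt1 and Errfi1 were also called, less firmly. Mt1 had 278, 113 and 107 UMIs with E2 and 596, 264 and 7 with E2 + P4, or 389, 244 and 1259 CPM against 1629, 1639 and 1158 CPM (1.31 ± 0.414, adjusted p = 0.0252). Its groups overlapped through the high PBDE pair. The call was lost without VCD_E2 (0.69), VCD_E2_P4 (1.04), VCD_Low_E2 (0.54) or VCD_Low_E2_P4 (1.14). Errfi1 was at 51.7, 23.7 and 58.9 CPM with E2 and at 95.7, 261 and 0 CPM with E2 + P4 (1.88 ± 0.471, adjusted p = 0.00204), where the 2 cells of VCD_High_PBDE_E2_P4 held 6045 UMIs in all. Its call was lost without VCD_E2 (2.12), VCD_Low_E2 (1.20) or VCD_Low_E2_P4 (0.87), and with a mitochondrial limit of 10% (0.33, adjusted p = 0.781).

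Sgk1, Zbtb16 and Tsc22d3 were not called in luminal cells. Sgk1 was at 425, 268 and 659 CPM with E2 and at 123, 372 and 662 CPM with E2 + P4 (-0.81, adjusted p = 0.314), lower only at no PBDE. Zbtb16 was at 8.39, 10.8 and 23.5 CPM against 32.8, 31.0 and 0 CPM (1.55, adjusted p = 0.290), from 0 to 12 UMIs per library. Tsc22d3 was at 28.0, 15.1 and 11.8 CPM against 10.9, 43.5 and 0 CPM (0.02, adjusted p = 0.998), from 0 to 20 UMIs, and its direction was mixed. Of the known progesterone targets looked at beside them, Tnfsf11, which encodes RANKL, had 0 UMIs with E2 and 25, 8 and 0 with E2 + P4, and Calca had 1, 2 and 0 against 648, 541 and 5. Pgr (-1.81, adjusted p = 0.00279) and the prolactin receptor gene Prlr (-2.12, adjusted p = 1.94e-07) fell, and Wnt4 (-0.10) and Areg (-0.74) were not called.

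**Figure D4:**
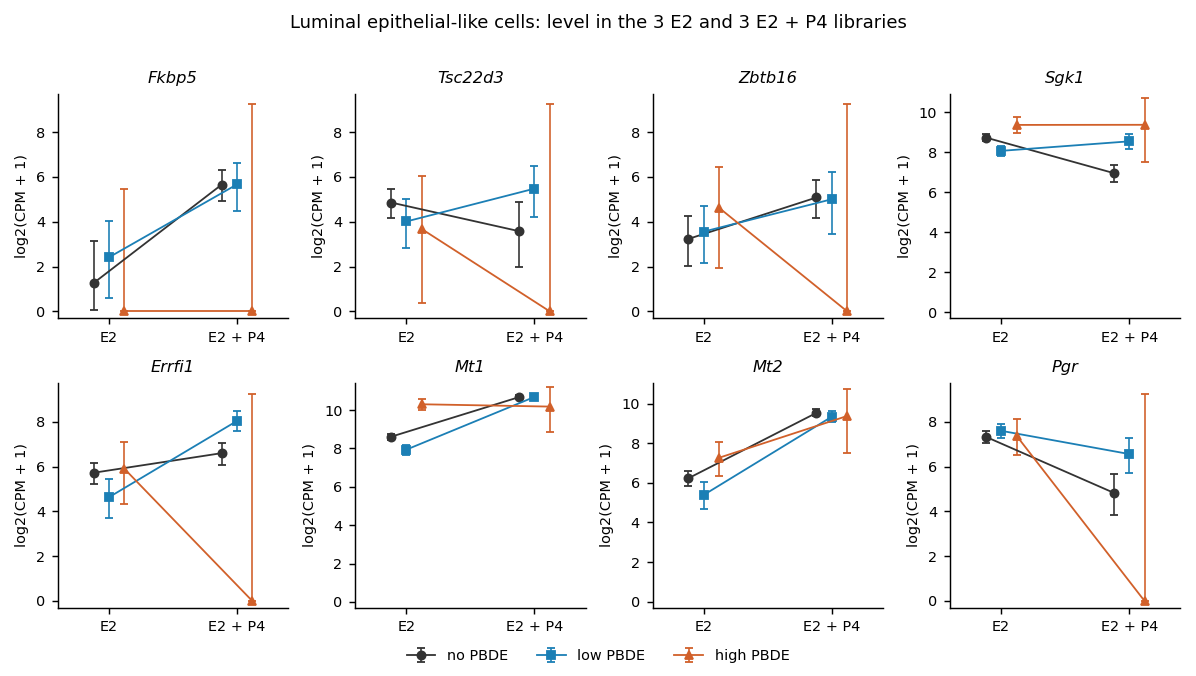
Level as log2(CPM + 1) of the 7 genes and Pgr in luminal epithelial-like cells of the 3 E2 and 3 E2 + P4 libraries, with colour and marker for PBDE level and exact 95% Poisson intervals. Mt2 is at 41.0 to 153 CPM with E2 and at 646 to 738 CPM with E2 + P4.

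The P4 response of the metallothioneins was larger in luminal cells than in macrophages, while T cells were not compared. Against macrophages the difference was 3.03 for Mt2 (adjusted p = 2.41e-07, called without any 1 library) and 1.39 for Mt1 (adjusted p = 0.0158), 2 members against 3.84% of all genes. The Mt1 difference was lost without VCD_Vehicle (1.38), VCD_E2 (1.11), VCD_Low_E2 (0.89) or VCD_Low_E2_P4 (1.07). Against Dpp4+ cells the difference was 2.72 for Mt2 (adjusted p = 2.82e-06, called without any 1 library) and 1.81 for Errfi1 (adjusted p = 0.0146), with 6.55% of all genes called. The Errfi1 difference was lost without VCD_E2 (2.09), VCD_Low_E2 (1.09) or VCD_Low_E2_P4 (0.68). Without the high PBDE libraries the differences of Mt2, Mt1 and Errfi1 were called against Dpp4+ cells (3.20, 1.94 and 2.05, with 4.67% of all genes called) and against macrophages (3.36, 2.11 and 1.73, with 3.28% called).

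E2 against no hormone gave 4 calls among the members in the 6 types with enough cells, 1 in Dpp4+ and 3 in Fib_2 cells. In Dpp4+ cells Sgk1 rose with E2, from 88.6, 69.8 and 76.4 CPM without hormone to 154, 187 and 172 CPM (1.06 ± 0.146, adjusted p = 0.0143), 1 of 7 members called against 6.91% of all genes. The call was lost without VCD_E2 (1.13), VCD_Low_PBDE (0.99) or VCD_Low_E2 (0.93). Mt1 was at 4027, 7920 and 4074 CPM without hormone (-0.89 ± 0.241, adjusted p = 0.0659) and Mt2 at 1876, 3475 and 1635 CPM (-0.88 ± 0.225, adjusted p = 0.0572), and neither passed. Sgk1, Mt1 and Mt2 were the 3 members whose groups did not overlap, against 24.3% of all genes.

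In Fib_2 cells 3 of 7 members fell with E2, where 19% of all genes were called. Mt1 fell from 6708, 6597 and 6267 CPM to 2461, 3504 and 2726 CPM (-1.26 ± 0.125, adjusted p = 0.000372). Mt2 fell from 1230, 1065 and 874 CPM to 740, 854 and 576 CPM (-0.63 ± 0.106, adjusted p = 0.00467), a call that was lost without PBDE as covariate (adjusted p = 0.0584), with a stricter gate (-0.40) and with thinned cells (-0.40). For these 2 members the groups did not overlap, against 35.2% of all genes. Tsc22d3 fell by 1.41 on the log2 scale (± 0.238, adjusted p = 0.00467), from 83.7, 192 and 184 CPM to 42.6, 42.7 and 101 CPM. All 12 dissociation stress genes fell as well, and their summed level went from 22640, 26100 and 29260 CPM to 15000, 15650 and 11900 CPM. Of 19 further glucocorticoid targets tested, 7 fell (Glul, Txnip, Pdk4, Rhob, Nfkbia, Cdkn1a and Klf9) and 2 rose (Rgs2 and Angptl4). The part of the stress genes in these values was not tested. Fib_2 cells were named by matrix markers that include Postn, which the paper reports as raised by E2 in the matching fibroblasts. They numbered 577, 436 and 181 without hormone and 258, 330 and 401 with E2. The cells named Fib_2 may therefore not be the same cells in both groups, and the part of this was not tested.

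The E2 response of Tsc22d3 and Sgk1 differed between fibroblast types. It was higher in Dpp4+ than in Fib_2 cells by 1.07 ± 0.106 for Tsc22d3 (adjusted p = 0.0020) and by 0.89 ± 0.233 for Sgk1 (adjusted p = 0.0443), with 10.5% of all genes called. The Tsc22d3 difference was called without any 1 library (0.97 to 1.11), whereas that of Sgk1 was called in 2 of 9 such fits (0.64 to 1.27). Against Fib_1 (2.35% of all genes called), Fib_3 (0.416%), macrophages (0.425%) and T cells (0.373%) no member's E2 response was called different from that in Dpp4+ cells. The nearest were Mt1 against T cells (-0.68, adjusted p = 0.0655) and Sgk1 against Fib_3 (1.00, adjusted p = 0.0682). Between Dpp4+ cells with and without a Pgr UMI no member differed in its E2 response either (0.173% of all genes called). In luminal cells Errfi1 fell with E2, from 378, 219 and 128 CPM without hormone to 51.7, 23.7 and 58.9 CPM (-2.64 ± 0.451, adjusted p = 6.18e-07, with 4.58% of all genes called), and without the high PBDE libraries its log2 fold change was -2.83 (2.41% called). The libraries without hormone held 9, 13 and 6 luminal cells, and 1 cell held 22 of the 33 Errfi1 UMIs of VCD_Vehicle and another all 5 of VCD_High_PBDE. The call was lost without VCD_Low_E2 (-2.04, adjusted p = 0.0687) and with a mitochondrial limit of 10% (-0.50, adjusted p = 0.641).

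In the remaining types 0 members were called for E2, with 1.93% of all genes called in Fib_1, 0.0721% in Fib_3, 0.22% in macrophages and 0% in T cells, where 524 of 9575 genes had an unadjusted p under 0.05. By edgeR's quasi-likelihood test the members at an unadjusted p under 0.05 numbered 2, 3, 1 and 2 in these types, and in the first 3 of them 2392 of 12977, 1922 of 12491 and 892 of 8172 genes were at that threshold.

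PBDE level was compared in the same layout. With high PBDE, Tsc22d3 rose in macrophages, from 180, 153 and 113 CPM (no hormone, E2, E2 + P4) without PBDE to 340, 502 and 249 CPM (1.28 ± 0.199, adjusted p = 0.0164), 1 of 7 members against 0.184% of all genes. The call was lost without any one of VCD_Vehicle, VCD_E2, VCD_E2_P4, VCD_Low_E2_P4 or VCD_High_PBDE_E2_P4 (0.98 to 1.52 over all 9). The dissociation stress sum of macrophages was 16540, 15520 and 12910 CPM with high PBDE against 11320, 12770 and 11220 CPM without, its gene Hspa1b was called higher (0.80, adjusted p = 0.031), and its part was not tested. In Dpp4+ cells high PBDE gave 0.76 for Errfi1 (adjusted p = 0.0624), 1.03 for Tsc22d3 (adjusted p = 0.115) and 1.45 for Zbtb16 (adjusted p = 0.130), none called, with 0.192% of all genes called. In the other types no member was called for high PBDE (0.108% of all genes called in Fib_1, 0.0496% in Fib_2, 0.016% in Fib_3 and 0.0209% in T cells), and by edgeR's quasi-likelihood test 4, 6, 4 and 4 members there had an unadjusted p under 0.05, as did 2030 of 12977, 1680 of 12104, 1710 of 12491 and 723 of 9575 genes. High PBDE cannot be told apart from the file-name code or from the shorter exposure. With low PBDE no member was called in any of the 6 types by edgeR's quasi-likelihood test (0.00826% of all genes called in Fib_2, 0.0122% in macrophages and 0% in the other types), and at an unadjusted p under 0.05 there were 1 in Dpp4+ cells (586 of 13552 genes), 3 in Fib_2 (384 of 12104 genes) and 0 in the other 4 types.

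Certain libraries were high for some of the members in several unlike cell types. Fkbp5 was over 1.5 times its median over the 12 libraries in 4 of 6 types in VCD_Low_PBDE, 3 in VCD_High_PBDE_E2 and 5 in VCD_High_PBDE_E2_P4, and in 0 types in each of the other 9 libraries. In macrophages, where no Pgr UMI was found, it was at 52.4 CPM in VCD_Low_PBDE, 40.6 CPM in VCD_High_PBDE_E2 and 33.3 CPM in VCD_High_PBDE_E2_P4, with the other 9 libraries at 16.1 CPM or less. Tsc22d3 passed the same mark in 6 of 6 types in VCD_High_PBDE, 5 in VCD_Low_PBDE and 4 in VCD_High_PBDE_E2. Zbtb16 did so in 6 types in VCD_High_PBDE_E2, in 5 each in VCD_Low_PBDE, VCD_High_PBDE and VCD_High_PBDE_E2_P4, and in 1 each in VCD_Vehicle_NormEnv and VCD_E2_ICI. In Fib_2 cells it was at 53.3 CPM in VCD_Low_PBDE, 6.08 times the median. Mt1 was among the 2 highest libraries in VCD_Low_PBDE in 6 of 6 types, at 1.39 to 2.28 times the median, and Mt2 in 5 of 6. Sgk1 and Errfi1 were over 1.5 times the median in 0 types in VCD_Low_PBDE, where Sgk1 was at 0.505 to 1.17 times the median. In VCD_High_PBDE_E2 they passed that mark in 4 and 2 types, and in VCD_High_PBDE_E2_P4 in 1 and 4. The share of all genes over the mark was not computed, so no pattern of the members is read from these counts. Cells of one library share its dissection and preparation, so that the types are not separate replicates of a condition.

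**Figure D5:**
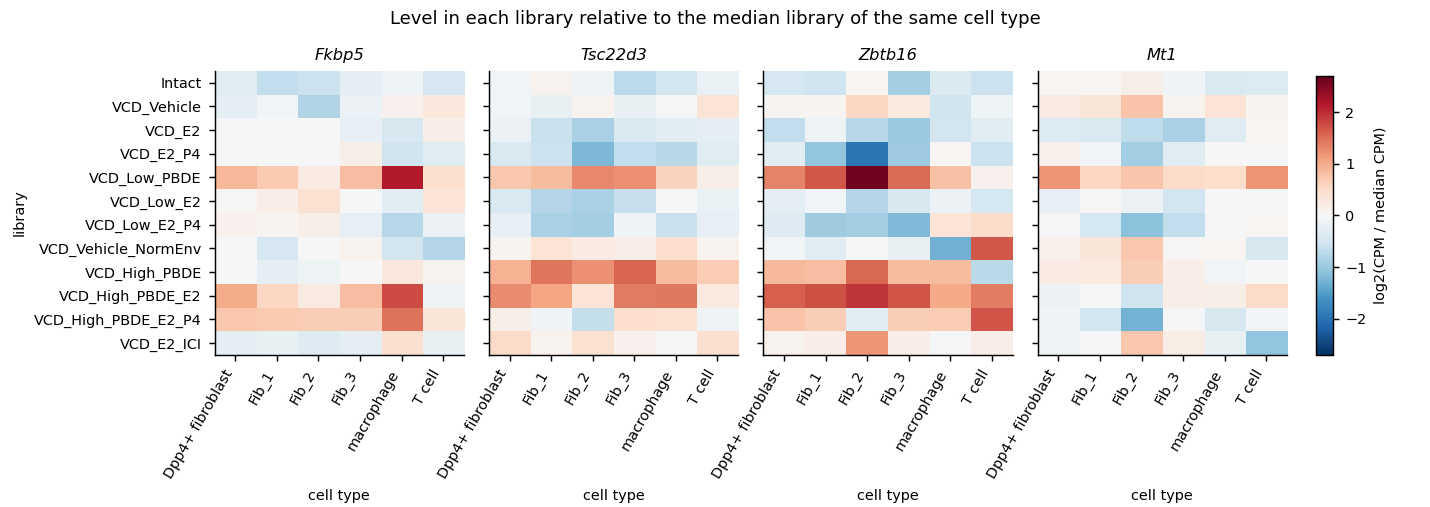
Level of Fkbp5, Tsc22d3, Zbtb16 and Mt1 in each of 12 libraries and 6 cell types, as colour for log2 of the CPM over the median CPM of that gene and type. In VCD_Low_PBDE the values reach 4.38 times the median for Fkbp5 and 6.08 times for Zbtb16, while the high PBDE libraries are above the median for some of these genes and not for others.

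Intact, VCD_Vehicle_NormEnv and VCD_E2_ICI had 1 library each and no layout to give an error, so values are given with exact 95% Poisson intervals, which cover counting error only. Sgk1 in Dpp4+ cells was at 154 CPM in VCD_E2 (149.5 to 159.5) and at 86.8 CPM in VCD_E2_ICI (81.5 to 92.4), the latter within the interval of VCD_Vehicle (83.9 to 93.5). Intact was at 119 CPM (113 to 124) and VCD_Vehicle_NormEnv at 66.3 CPM (63.0 to 69.7). The vehicle libraries, which were unlike in housing, thus differed from each other by more than counting error. The file-name code was not the same for all libraries set side by side here, and its part was not tested. Mt1 in Fib_2 cells was at 2461 CPM in VCD_E2 and at 6507 CPM in VCD_E2_ICI, near the 6708 CPM of VCD_Vehicle and 6479 CPM of VCD_Vehicle_NormEnv, with Intact at 4373 CPM. The summed dissociation stress level of Fib_2 cells was 22520 CPM in VCD_E2_ICI and 15000 CPM in VCD_E2, and its part in the Mt1 values was not tested. Tsc22d3 in Fib_2 cells was at 42.6 CPM in VCD_E2, 104.5 CPM in VCD_E2_ICI and 83.7 CPM in VCD_Vehicle. Not every member was near VCD_Vehicle with ICI. In thinned Dpp4+ cells without a Pgr UMI, Mt2 was at 1398 CPM in VCD_E2, 1272 in VCD_E2_ICI and 1977 in VCD_Vehicle. Mt1 in those cells was at 2802, 3170 and 4129 CPM in the same order.

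The genes whose level over the 12 Dpp4+ sums was most like each member were found by Pearson r of log2(CPM + 1) among 7588 genes of at least 10 CPM on average. For Fkbp5 they were Ppp2r2d (0.908), Ccdc117 (0.901) and Kcnq1ot1 (0.893), for Tsc22d3 Rac3 (0.925), Gab1 (0.917) and Syf2 (0.913), and for Zbtb16 Tspan5 (0.98), Aggf1 (0.921) and Ldb1 (0.918). Sgk1 was most like Dhx32 (0.931), Ttyh3 (0.931) and Mmp19 (0.926), and Errfi1 most like Hes1 (0.95), Pmp22 (0.944) and Ackr3 (0.94). Of the members only Mt1 and Mt2 were among each other's nearest genes (0.902), after Syne2 (0.955) for Mt1 and Nop14 (0.929) for Mt2. These values share libraries and depth and are a description only.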

How the data were processed

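Per the labels, Chromium v3 libraries of dissociated mammary glands were sequenced on a HiSeq (the methods name a NovaSeq), and the authors deposited raw UMI counts for each gene in each barcode. Cell Ranger 3.1.0 and mm10 had been used, and no normalization was applied. Dead cells and lymph nodes were removed before encapsulation, per the methods. The number of animals behind each library is not given in the sources used here.

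A barcode counted as a cell with 500 or more genes, 1000 or more UMIs and a mitochondrial share of 5% or less. A cell took the name of a type when at least 3 of its 8 markers were detected and it led the next type by 2. Fibroblasts were divided by a score with a margin of 0.25. No doublet removal was applied, and the alternative removed 0.8% per 1000 barcodes (2040 cells). Counts were summed per library and type, and types with at least 20 cells in each of the 9 libraries of the layout were tested with edgeR 4.0.16 (quasi-likelihood, TMM, filterByExpr) in R 4.3.3, with Benjamini-Hochberg adjustment at 0.05. DESeq2 1.42.0 was an alternative, and luminal cells were fitted with a count minimum of 5. Intervals cover counting error only. Cells were processed with scanpy 1.11.5 and scipy 1.17.1. The code was checked on simulated counts.

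The members, lists and tests were chosen with earlier results of these data known. Named beside the members are the genes of the steroid receptor list (1 of them is not reported here), the 5 genes of smallest p in each direction for P4 in Dpp4+ cells, the 3 genes most like each member, and list genes where called. Tnfsf11, Calca, Prlr, Wnt4 and Areg in luminal cells, the list genes named in Fib_2 cells and the unlike libraries were singled out after their values were seen.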

Additional observations from a re-analysis of the deposited data

Results flagged for a closer look

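Each result below was picked out because the response to one hormone differed between sets of cells by a test of the difference itself (edgeR's quasi-likelihood test, library as block, Benjamini-Hochberg adjustment). No group had 4 or more libraries, so no library was tested for standing apart from its group.

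For E2, the log2 response of Tsc22d3 was higher in Dpp4+ than in Fib_2 cells by 1.065 and that of Sgk1 by 0.8925. With 1 library left out in turn, the Tsc22d3 difference was called in 9 of 9 fits and that of Sgk1 in 2 of 9. Of the 12 dissociation stress genes, 12 were called lower with E2 in Fib_2 and 1 in Dpp4+ cells, and their part was not tested. The cells named Fib_2 may not be the same cells with and without E2, as given above. In Fib_2 cells Tsc22d3 fell with E2. In Dpp4+ cells it was at 31.3, 54.8 and 63.4 CPM without hormone and at 29.6, 24.6 and 80.2 CPM with E2 (no, low and high PBDE), so that its direction was mixed there.

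For P4, the response was higher in Dpp4+ cells with a Pgr UMI than in the other Dpp4+ cells by 0.5027 for Mt2 and by 0.4975 for Mt1. The share of cells with a Pgr UMI was lower with P4 at each PBDE level, and its part was not tested.

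The P4 response was higher in luminal cells than in Dpp4+ cells by 2.718 for Mt2 and by 1.807 for Errfi1, and higher than in macrophages by 3.027 for Mt2 and by 1.387 for Mt1. These rest on 65 luminal cells with E2 and 28 with E2 + P4.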

How the results depend on the processing

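No paired analysis was possible because each group is 1 library, with no replicate number to pair by, although libraries of the same PBDE level were matched through the covariate. The number of members called depended on the setting as follows. For P4 in Dpp4+ cells DESeq2 called 1. For P4 in Fib_2 cells 0 were called with the 6 libraries given E2 or E2 + P4, without PBDE as covariate and with a mitochondrial limit of 10%. In macrophages 1 was called for P4 without a filter on low counts. For E2, 3 were called in Dpp4+ cells without a filter and 2 with thinned cells, and 1 in Fib_1 without a filter. For high PBDE, the calls without a filter were 1 in Dpp4+, 1 in Fib_1, 3 in Fib_2, 2 in Fib_3 and 3 in macrophages. With 6 libraries they were 2 in Dpp4+, 2 in Fib_1, 1 in Fib_2 and 3 in macrophages, and with thinned cells 1 in Fib_1. The share of all genes called for high PBDE under these settings is not given here. These counts therefore show only that the calls depend on the setting. A stricter gate gave 1 call for the P4 difference between Dpp4+ and T cells and 1 in luminal cells, where thinning to 1000 UMIs gave 0. The P4 log2 fold change in Dpp4+ cells turned to -0.0076 for Fkbp5 without PBDE as covariate and to -0.077 with thinned cells, and that of Errfi1 to -0.013 with the stricter gate and -0.017 with thinned cells.

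Leaving out each library in turn, the members called ranged from 0 to 0 for P4 in Fib_2, 0 to 2 for E2 in Dpp4+ cells and in macrophages, 0 to 1 for high PBDE in Dpp4+, Fib_1 and Fib_2, 0 to 3 for high PBDE in macrophages, 0 to 2 for the P4 difference between Dpp4+ and Fib_2, 1 to 2 for that between cells with and without Pgr, and 1 to 4 in luminal cells, or 1 to 3 without Fkbp5, for which no test is drawn. The P4 log2 fold change in Dpp4+ cells ranged from -0.25 to 0.32 for Fkbp5, -0.69 to 0.029 for Tsc22d3, -0.46 to 0.43 for Zbtb16 and -0.11 to 0.14 for Errfi1, and kept its sign for Sgk1 (-0.78 to -0.47), Mt1 (0.12 to 0.55) and Mt2 (0.14 to 0.64). Mt2 in Fib_2 cells lost its E2 call without PBDE as covariate, with the stricter gate and with thinned cells.

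Calls over all genes moved widely between settings. For P4 they ranged from 1 to 137 in Dpp4+ cells (16 as reported), 0 to 134 in Fib_1 (0), 0 to 440 in Fib_2 (138), 0 to 161 in Fib_3 (13), 0 to 106 in macrophages (18) and 0 to 600 in T cells (1). For E2 they ranged from 0 to 1201 in Dpp4+ cells (936) and 1201 to 2493 in Fib_2 (2298). Counts of Fkbp5 and Zbtb16 were low in luminal cells, where the libraries with E2 or E2 + P4 held 0 to 18 UMIs of either.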
